A study of Sus scrofa domesticus with 4 samples.

Results

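Growth hormone and 4 receptors that control its release were followed in the anterior pituitary of pigs: GH1, which encodes growth hormone, GHRHR, the receptor of growth hormone-releasing hormone, GHSR, the ghrelin receptor, and the somatostatin receptors SSTR2 and SSTR5. The members are probes whose RefSeq accession belongs to 1 of these 5 genes. Each gene had exactly 1 probe, so 5 of 43603 probes were taken, and 5 of the 2459 genes that could be named. The tissue came from 8 mature gilts (young female pigs; Large White x Polish Landrace) weighing about 110 kg, from a private farm. In the pregnant group, 4 naturally mated gilts were sampled on days 12 to 13 of early pregnancy, with conceptuses found. In the cyclic group, 4 gilts were sampled on days 12 to 13 of the estrous cycle, as judged from the ovaries. Each array held RNA of 1 pregnant and 1 cyclic gilt, labelled with the fluorescent dyes Cy3 and Cy5. The study asked how the transcriptome of the gland differs between these states during maternal recognition of pregnancy.

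Growth hormone is made by somatotrophs, a large cell population of the anterior pituitary. Growth hormone-releasing hormone from the hypothalamus acts through GHRHR, a receptor coupled to the stimulatory G protein, to raise cyclic AMP, growth hormone gene transcription and hormone release. Ghrelin acts through GHSR to raise calcium and release. Somatostatin opposes both through receptors coupled to inhibitory G proteins, of which SSTR2 and SSTR5 are the forms best known in somatotrophs. SSTR5 is also known from other hormone cells of the gland. The lineage depends on the transcription factor POU1F1, which lactotrophs and thyrotrophs need too. In whole tissue, fewer cells of a type and less RNA per cell cannot be told apart.

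The sample labels put pregnant RNA in Cy3 for arrays 1 and 3, and in Cy5 for arrays 2 and 4. The labels' labelling protocol can be read as pregnant RNA in Cy3 on every array. With the sample labels, the pregnant over cyclic ratios of all 6 pairs of arrays correlated above 0 across tested probes. The highest Pearson r, 0.45, was that of arrays 1 and 3, which have the same dyes. In pairs with opposite dyes r was 0.39 (arrays 1 and 2), 0.38 (arrays 2 and 3), 0.07 (arrays 1 and 4) and 0.02 (arrays 3 and 4). Probes are not independent replicates. GH1 and the 6 other hormone genes PRL, TSHB, CGA, LHB, FSHB and POMC were well above background in all 8 channels. So were 4 of the 6 markers of intermediate lobe and neural tissue on the array (AQP4, MBP, OXT and PCSK2), 4 of 4 stromal, 3 of 3 endothelial and 3 of 3 myeloid markers. Of the members, GH1, GHRHR and SSTR5 were well above background in all 8 channels, GHSR in 7 and SSTR2 in 4. No spot on the arrays was saturated, and no member spot carried an outlier flag or lay in a dim area of array 4.

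SSTR5 was higher in the pregnant gilt on all 4 arrays, by 2.35-fold on average, but did not pass the test over all probes. GH1 and GHRHR gave ratios near 0 on average whose sign followed the dye on every array. GHSR ratios lay within 0.12 log2 units of 0 on every array, but its probe was dim, where the offset of 50 draws ratios towards 0, and with processed signals they spread from -0.68 to 0.59. SSTR2 was too dim to be tested. None of the 4 tested members had an adjusted p under 0.05 in limma with Benjamini-Hochberg adjustment, and of all 21627 tested probes 0 did (0%). At an unadjusted p under 0.05 limma listed 1 of the 4, SSTR5, where 18.1% of all tested probes were listed, 10.4% as higher and 7.62% as lower in pregnant gilts. A count of 1 in 4 is near that background.

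**Figure D1:**
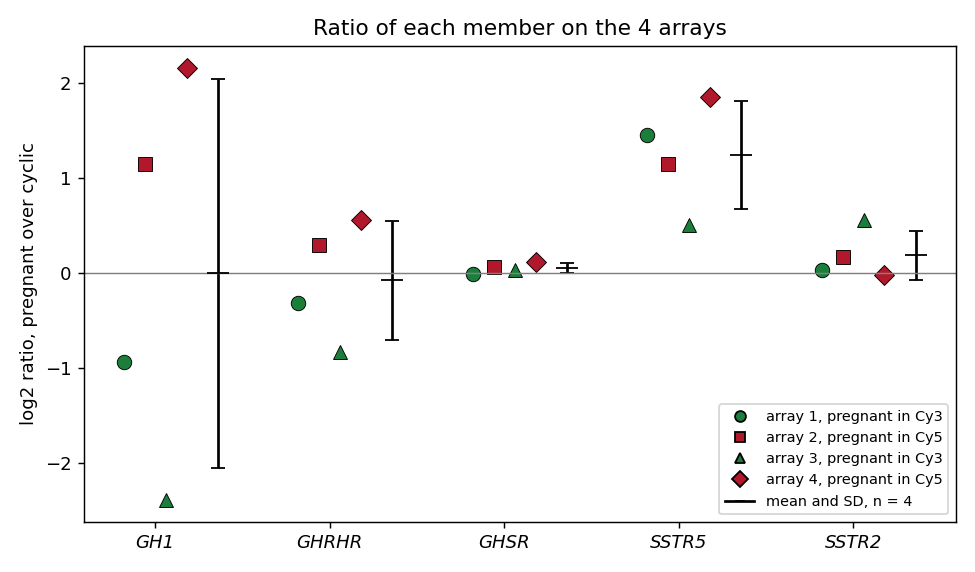
Normalized log2 ratio of pregnant over cyclic (vertical axis) for the 5 members on each array, coloured by the dye of the pregnant RNA, with the mean and SD of the 4 arrays in black. GH1 and GHRHR are below 0 where pregnant RNA was in Cy3 and above 0 where it was in Cy5, while SSTR5 lies between 0.50 and 1.85 in both orientations.

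SSTR5 (probe A_72_P303314, NM_001038229) encodes the somatostatin receptor subtype that, beside its place in somatotrophs, lowers secretion in several hormone cells. In Cy3, the pregnant gilts of arrays 1 and 3 gave median spot signals of 1844 and 1256, and the cyclic gilts of arrays 2 and 4 gave 748 and 551. In Cy5, the pregnant gilts of arrays 2 and 4 gave 4944 and 5066, and the cyclic gilts of arrays 1 and 3 gave 1851 and 1192. Within each dye both pregnant gilts were thus brighter than both cyclic gilts, before any normalization. Local background lay at 34 to 42 in these 8 channels.

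After loess and scaling between arrays, the log2 level of SSTR5 was 11.40, 11.27, 10.40 and 12.27 in the pregnant gilts of arrays 1 to 4, and 9.95, 10.12, 9.90 and 10.42 in the cyclic gilts. The pregnant mean was 11.33 ± 0.77 (SD, n = 4) and the cyclic mean 10.10 ± 0.24 (SD, n = 4). The groups overlapped by a single gilt, since the pregnant gilt of array 3 lay just under the cyclic gilt of array 4. Cyclic gilts were close together and pregnant gilts were spread, with array 4 highest.

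The log2 ratios of SSTR5 were 1.44, 1.15, 0.50 and 1.85 on arrays 1 to 4. All 4 were positive, as for 14.6% of the 19880 probes measured on 4 arrays. The fitted ratio was 1.23 ± 0.57 (SD, n = 4), with an SE of 0.204 and a 95% interval of 0.70 to 1.77, that is 1.63-fold to 3.40-fold. Limma gave an unadjusted p of 0.00201 and an adjusted p of 0.235. An exact two-sided sign-flip permutation test over the 4 arrays gave p = 0.125, the smallest that 4 arrays allow. A ratio as high or higher was found in 0.0786% of tested probes. The mean was 0.97 on the arrays with pregnant RNA in Cy3 and 1.50 on those with it in Cy5, and the fitted dye effect was 0.26.

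The SSTR5 ratio lay between 1.00 and 1.47 in every setting with the dyes as labelled, several of which could not change it. The call varied between settings. Without the array of replicate 1, limma gave SSTR5 an adjusted p of 0.0211, in a fit that called 15.5% of its probes. A separate-channel fit of the 8 gilts gave an adjusted p of 0.0267 and called 5.26% of its probes. With the dyes as labelled, the limma adjusted p was also as high as 0.853 without replicate 2. It was 0.588 without replicate 4 and 0.422 with median centring. Over all settings the adjusted p ran from 0.0211 to 0.917. The last was with pregnant RNA read as Cy3 on every array, where state and dye cannot be told apart. There the ratio was -0.26 and 2 of 4 arrays were positive.

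**Figure D2:**
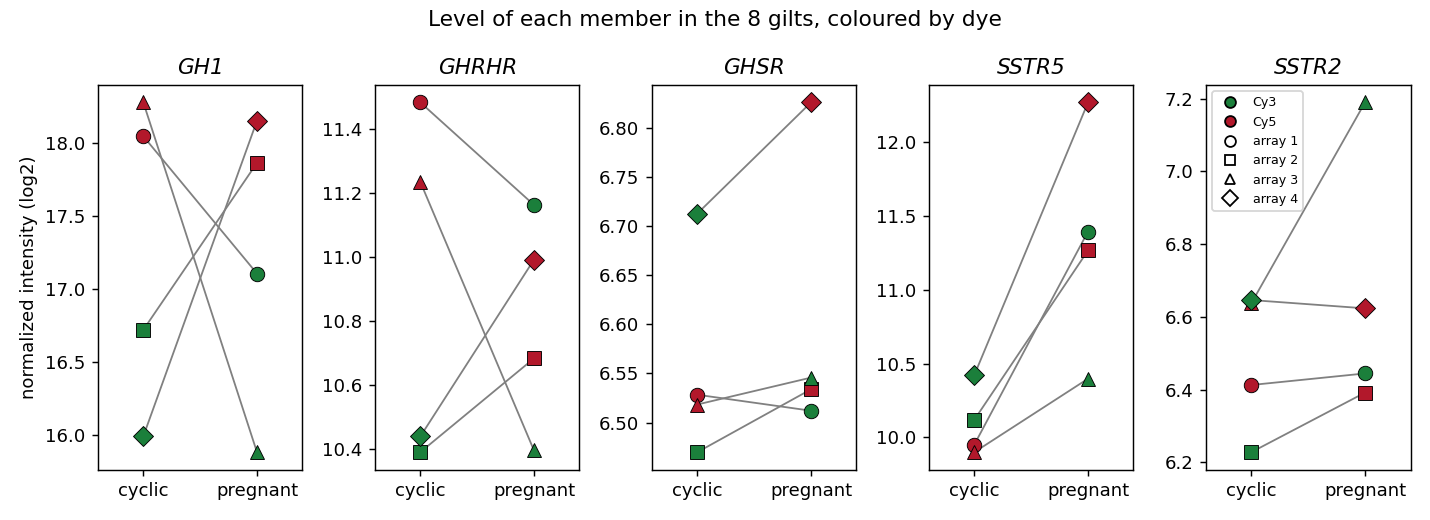
Normalized log2 intensity (vertical axis, a separate scale for each gene) in the 4 cyclic and 4 pregnant gilts, with lines joining the 2 gilts of an array and colour giving the dye. SSTR5 is higher at the pregnant end of all 4 lines, while for GH1 the Cy5 points (17.86 to 18.28) lie above all Cy3 points (15.88 to 17.11) in both states.

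GH1 (probe A_72_P232612, NM_213869), the hormone gene itself, was bright in every gilt. Its median signal in Cy5 was 556448 and 429184 in the cyclic gilts of arrays 1 and 3 and 528015 and 457289 in the pregnant gilts of arrays 2 and 4. In Cy3 it was 72178 and 48762 in the pregnant gilts of arrays 1 and 3 and 54823 and 28800 in the cyclic gilts of arrays 2 and 4. The Cy5 signals reached 55.1% to 71.5% of the scanner's saturation value and the Cy3 signals 3.69% to 9.26%.

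GH1 was therefore brighter in Cy5 than in Cy3 on every array, whichever gilt carried Cy5. After normalization its log2 level was 17.11, 17.86, 15.88 and 18.15 in the pregnant gilts of arrays 1 to 4 and 18.05, 16.72, 18.28 and 15.99 in the cyclic gilts. The means were 17.25 ± 1.01 and 17.26 ± 1.09 (SD, n = 4 each). Levels separated by dye without overlap, at 15.88 to 17.11 in Cy3 and 17.86 to 18.28 in Cy5, and the 2 states overlapped almost fully.

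The log2 ratios of GH1 were -0.94, 1.14, -2.39 and 2.16 on arrays 1 to 4. The fitted ratio was -0.0078 ± 2.05 (SD, n = 4), with a limma adjusted p of 0.991 and an exact sign-flip permutation p of 1. The fitted dye effect was 1.66, and 0.037% of tested probes had a dye effect as large or larger. The SE of 0.295 and the 95% interval of -0.78 to 0.76 leave the split by dye out, since the fit takes it as a dye effect. The 2 dye orientations were run on different gilts, so a dye effect and a difference between gilts cannot be told apart. The interval still spans changes of 1.69-fold upwards and to 0.584 of the cyclic level downwards, so these arrays do not show that growth hormone mRNA was equal in the 2 states.

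GH1 lay at the bright end of the brightness scale. Before loess its Cy5 over Cy3 log2 ratio was 2.95, 3.27, 3.14 and 3.99 on arrays 1 to 4, and loess removed 2.01, 2.12, 0.74 and 1.83 of it. Only 139 to 247 other spots per array lay within 1 log2 unit of its brightness. When each array was centred on the median of such spots in place of loess, a setting chosen after seeing the data, GH1 gave -0.65, 0.89, -2.21 and 1.88. The sign followed the dye here too. Only 3, 11, 24 and 25 spots were brighter than GH1 on arrays 1 to 4, so most of the spots used were dimmer. If the dye ratio rises with brightness, this setting may not fully remove that rise and cannot separate it from the GH1 ratio. The part of such a rise in the GH1 ratio was not tested. If pregnant RNA is read as Cy3 on every array, the GH1 ratio is -1.66 and negative on all 4 arrays. Limma then gave an unadjusted p of 0.00142 and an adjusted p of 0.848. This -1.66 is the fitted dye effect of 1.66 with its sign turned. In that reading state and dye go together on every array, so they cannot be told apart.

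**Figure D3:**
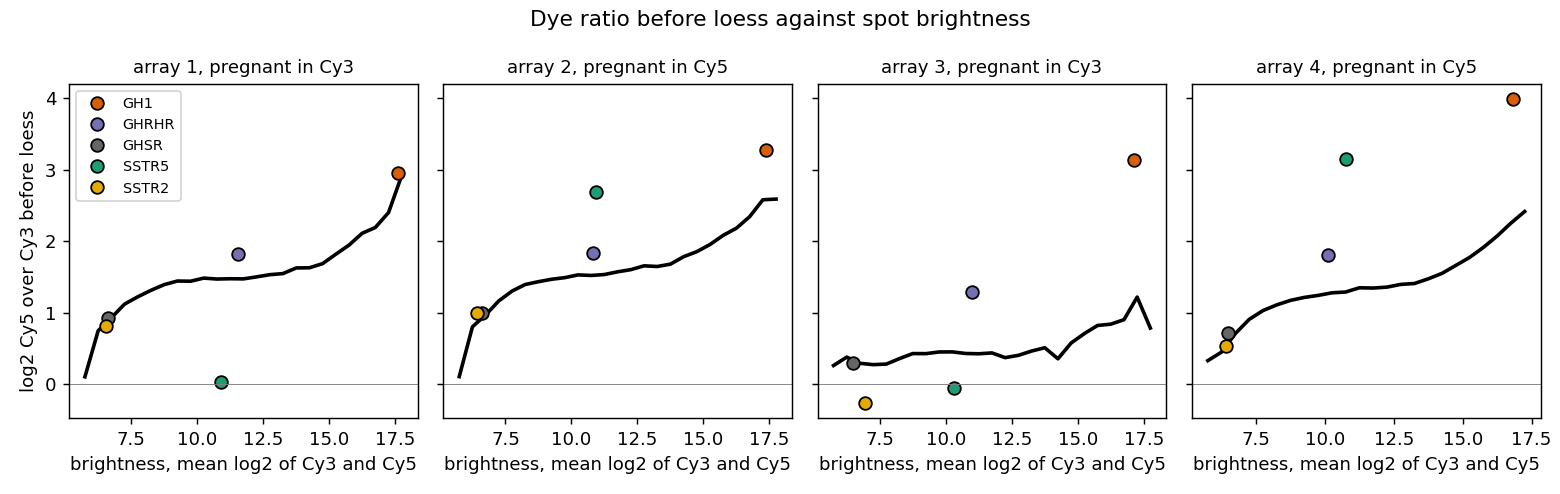
Background-corrected log2 Cy5 over Cy3 before loess (vertical axis) against spot brightness, the mean log2 of both dyes, on each array. The black line is the median of all spots in steps of brightness, and coloured points are the 5 members. GH1 sits at the bright end and at or above the line on all 4 arrays, SSTR5 lies below it on arrays 1 and 3 and above it on arrays 2 and 4.

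GHRHR (probe A_72_P088606, NM_214035), the receptor through which the hypothalamus drives somatotrophs, repeated the pattern of GH1 at a smaller size. Its log2 level was 11.16, 10.68, 10.40 and 10.99 in the pregnant gilts of arrays 1 to 4 and 11.48, 10.39, 11.24 and 10.44 in the cyclic gilts. The ratio was -0.32, 0.29, -0.84 and 0.55 on arrays 1 to 4, negative where pregnant RNA was in Cy3 and positive where it was in Cy5. The groups overlapped widely.

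The fitted ratio of GHRHR was -0.08 ± 0.63 (SD, n = 4), with an SE of 0.12, a 95% interval of -0.39 to 0.23, a limma adjusted p of 0.76 and an exact sign-flip permutation p of 0.875. Its dye effect was 0.50, and 2.07% of tested probes had one as large or larger. The interval corresponds to 0.763 to 1.18 times the cyclic level, again with the split by dye left out. Unlike GH1, GHRHR lay in a part of the brightness scale with 3528 to 4363 other spots within 1 log2 unit. Over the 8 gilts the levels of GH1 and GHRHR had a Pearson r of 0.78, and of 0.64 after the mean of each dye was subtracted. The gilts share arrays and dyes, so these r are descriptions.

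GHSR (probe A_72_P232302, NM_214180), the receptor for ghrelin, was dim. Its median signals ran from 41 to 70 over local backgrounds of 30 to 39, and the cyclic gilt of array 4 was not well above background. GHSR therefore met the rule for testing through the pregnant group only. The log2 level was 6.51, 6.53, 6.55 and 6.83 in the pregnant gilts of arrays 1 to 4 and 6.53, 6.47, 6.52 and 6.71 in the cyclic gilts. Both gilts of array 4 were the highest of their groups, and the groups overlapped. The ratios were -0.02, 0.06, 0.03 and 0.11.

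The fitted ratio of GHSR was 0.05 ± 0.05 (SD, n = 4), with a 95% interval of -0.15 to 0.24, or 0.901 to 1.18 times the cyclic level, and a limma adjusted p of 0.773. The exact sign-flip permutation p was 0.25. An SD as large or larger was found in 97.0% of tested probes. The offset of 50 added at background correction is larger than the net signal of this probe and draws its ratios towards 0. In the processed signals of the scan software, without that offset, the 4 GHSR ratios were -0.08, 0.05, -0.68 and 0.59, with a fitted ratio of -0.03. The interval above holds for the main setting.

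SSTR2 (probe A_72_P223862, NM_001011694), the other main somatostatin receptor of somatotrophs, stayed close to background. Its median signal was 36.5, 44, 106 and 48 in the pregnant gilts of arrays 1 to 4 and 52, 36, 65 and 39 in the cyclic gilts, over local backgrounds of 29.5 to 38. It was well above background in the pregnant gilts of arrays 3 and 4 and in the cyclic gilts of arrays 1 and 3. Array 3 was thus the only array with both gilts measured, and there the log2 ratio was 0.55.

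The other SSTR2 ratios were 0.03 on array 1, 0.16 on array 2 and -0.02 on array 4, and the mean was 0.18 ± 0.26 (SD, n = 4). The probe did not meet the rule for testing. With no filter on dim probes limma gave it an adjusted p of 0.535. In the authors' deposited value table, which holds log2 ratios without an offset, the 4 values were -0.87, -1.06, 1.34 and 0.66. They split 2 against 2, and at this signal no difference in SSTR2 was detectable. The values of SSTR5 and SSTR2 stand side by side here, and their difference was not tested.

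The other genes of the axis were taken from lists written with earlier results of these data known. Their counts stand beside a background of 53.1% of tested probes and 43.8% of tested named genes with a positive ratio, and of 18.1% and 13.8% at an unadjusted limma p under 0.05. Of 18 ligands, hormones and further receptors, 11 had a probe and 9 were tested: 5 were higher and 4 lower in pregnant gilts, 0 at an unadjusted limma p under 0.05, with a median log2 ratio of 0.0025 beside 0.01 for all tested probes. With the scan software's processed signals 3 of the 9 were higher. SSTR3, a further somatostatin receptor, had 0.0025 ± 0.11 (SD, n = 4), and -0.15 with processed signals. GHRL, which encodes ghrelin, had 0.24 ± 0.52 and GHR, the growth hormone receptor, 0.24 ± 0.34, against 0.57 and 0.21 with processed signals. The feedback signal IGF1 had -0.05 ± 0.07 and its receptor IGF1R -0.17 ± 0.07, against -0.10 and -0.47 with processed signals. SST, which encodes somatostatin, was well above background in 5 of 8 channels and was not tested.

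Of 28 lineage and transcription factors 7 had a probe and 5 were tested. The 5 fitted ratios were positive, with a median of 0.08, and 1 had an unadjusted limma p under 0.05; with processed signals 3 of the 5 were positive. The gene under that p was POU1F1, the lineage factor of somatotrophs, at 0.46 ± 0.23 (SD, n = 4), with 0.74, 0.51, 0.37 and 0.21 on arrays 1 to 4 and a limma adjusted p of 0.235. RXRG, a retinoid receptor, had 0.16 ± 0.26.

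Of 45 genes of receptor signalling 14 had a probe and 13 were tested, 7 higher and 6 lower, with a median of 0.03 and 0 at an unadjusted limma p under 0.05, and 5 of the 13 were higher with processed signals. GNAS, the stimulatory G protein subunit that GHRHR uses, had 0.08 ± 0.28 (SD, n = 4) by its brightest probe, and its 16 tested probes ran from -0.46 to 0.14 with 4 positive. GNAI2 and GNAI3, inhibitory subunits of the kind somatostatin receptors use, had -0.21 ± 0.26 (SD, n = 3) and -0.02 ± 0.24. KCNJ5, a potassium channel opened by such receptors, had 0.14 ± 0.03, positive on all 4 arrays, at an unadjusted limma p of 0.114. PRKAR1A, a regulatory subunit of protein kinase A, had -0.28 ± 0.20 (SD, n = 3).

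Of the 6 other hormone genes 5 had negative ratios (4 with median centring, where TSHB was positive), and 1, PRL, had an unadjusted limma p under 0.05. The log2 ratio of PRL was -1.75, 0.01, -1.42 and -0.41 on arrays 1 to 4, and that of CGA was -1.19, 0.11, -1.04 and 1.06. As for GH1, both were lower where pregnant RNA was in Cy3, with dye effects of 0.69 for PRL and 0.85 for CGA. The dye effect was 0.32 for LHB, 0.11 for POMC, 0.07 for FSHB, which had a ratio on 3 arrays, and -3.09 for TSHB. TSHB was widely spread, at -0.15, -4.85, 6.30 and -1.36 on arrays 1 to 4. Its fitted ratio was -0.015 ± 4.66 (SD, n = 4), so neither its sign nor its dye effect is firm. The summed level of 5 of these hormone genes, without FSHB, overlapped between pregnant and cyclic gilts, at 390238 to 652106 against 543409 to 864119 on the linear scale. Of 4 stromal markers 3, SPARC, ACTA2 and FBN1, were lower at an unadjusted limma p under 0.05. DCN was positive on average only, at 0.22 ± 0.54 (SD, n = 4), with 0.70, -0.15, -0.32 and 0.67 on arrays 1 to 4. Its 3 probes ran from 0.013 to 0.22. Of the 3 FBN1 probes 1 was positive, and the ACTA2 probe lay in a dim area of array 4. At that p 1 of 3 endothelial markers was lower and 1 of 3 lymphocyte markers was higher. None of the tested myeloid and neural markers passed it. The summed level of ACTA2, FBN1 and DCN, without SPARC, which had a ratio on 3 arrays, ran from 4573 to 6089 in pregnant and from 4333 to 6488 in cyclic gilts. The part of these genes in the member ratios was not tested.

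**Figure D4:**
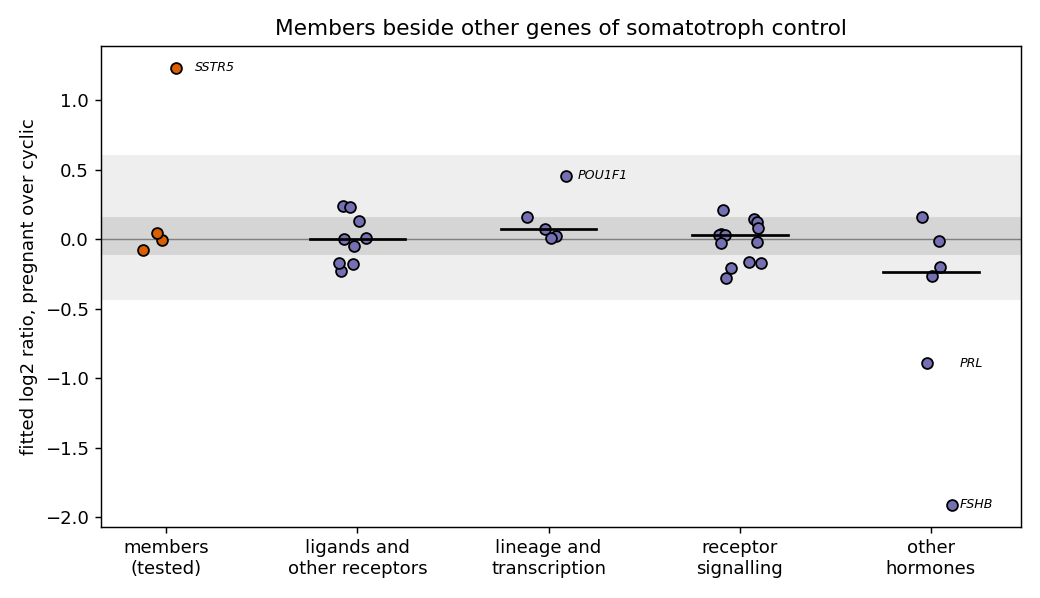
Fitted log2 ratio of pregnant over cyclic (vertical axis) for the 4 tested members and for the tested genes of 4 lists, with the median of each list as a black line. The light and dark grey bands hold the central 95% (-0.43 to 0.60) and the central 50% (-0.11 to 0.15) of all tested probes. SSTR5 lies above the light band, as the other 3 tested members do not.

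The genes whose level over the 8 gilts was most like that of each member were taken from 1489 other named genes, by Pearson r of the normalized log2 levels. For SSTR5 they were KCNS3 (r = 0.91), NAXE (0.91), IRAK4 (0.90), DKK3 (0.89) and POU1F1 (0.88). After subtraction of each dye's mean, a step chosen after seeing the data, 4 of the 5 stayed among the 5 nearest, and POU1F1 had r = 0.93. Both groups are pooled in these r, so a shared difference between pregnant and cyclic gilts raises them. The dye step leaves that difference in. All 5 genes had positive fitted ratios, from 0.39 (IRAK4) to 0.68 (KCNS3). On array 4 the SSTR5 ratio was the highest of the 4 arrays (1.85) and the POU1F1 ratio the lowest (0.21).

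For GH1 the nearest genes were TLR9 (r = 0.94), CHGB (0.86), HMGB2 (0.86), RPL7 (0.86) and CHI3L1 (0.86). After the dye means were subtracted 0 of the 5 stayed, and their r was between 0.33 and 0.70. They were chosen for a high r before that step, which by itself makes a lower r after it likely. POU1F1 had r = -0.13 with GH1, and 0.0086 after that step. The gilts of an array share its dyes, scan and hybridisation, and each r rests on 8 gilts.

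For GHRHR the nearest were KIR2DL1 (r = 0.91), STRA6 (0.85), DES (0.82), C13H21orf62 (0.81) and ENTPD1 (0.81), of which 2 stayed after the dye step. For GHSR they were MCT7, STX16, OCA2, CLEC4G and HPX, with r from 0.97 to 0.98, and 2 stayed. These r rest on GHSR levels near background that spanned only 6.47 to 6.83, with both gilts of array 4 the highest of their groups. What part array 4 has in them was not tested.

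**Figure D5:**
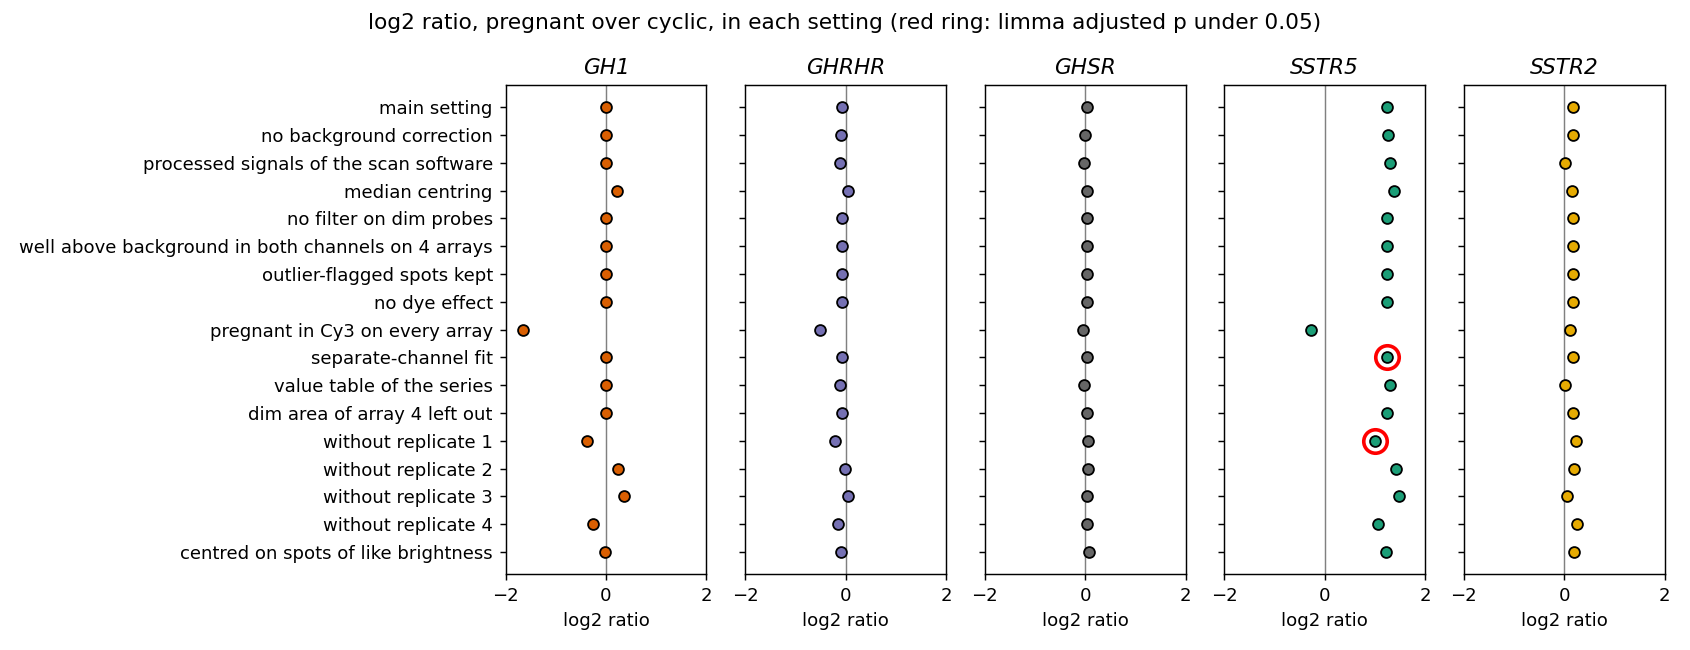
log2 ratio of pregnant over cyclic (horizontal axis) of each member in the main setting and in every other setting (rows), with a red ring where limma gave an adjusted p under 0.05. SSTR5 stays between 1.00 and 1.47 except where pregnant RNA is read as Cy3 on every array, and carries the only 2 rings.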

How the data were processed

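RNA of 8 gilts was measured on 4 two-colour Agilent arrays of design 026440 with 825 ng of labelled cRNA per dye, per the labels. The deposited files give spot and background intensity from Agilent Feature Extraction 10.7.3.1, per the file headers, with processed signals, flags and a log10 ratio of Cy5 over Cy3. The authors' deposited value table holds log2 ratios. Regressed on the scanner's processed log2 Cy5 over Cy3, its columns had slopes of -1, 1, -1 and 1, so it is turned to pregnant over cyclic by the dyes of each label. With medians of 0.07, -0.08, -0.18 and -0.17 the columns are uncentred. Which software made it is unknown here.

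Median signals were corrected by normexp (offset 50) and normalized by loess with weight 0 for control spots. Outlier-flagged spots were left out and spots of a probe averaged. A probe was tested where 1 group at least was well above background on all 4 arrays and 3 arrays had a usable spot: 21627 of 43603 were. Limma 3.58.1 in R 4.3.3 fitted the group difference and a dye effect. Levels were scaled between arrays by Aquantile. Errors are SD over arrays unless named, and the number of arrays limits the precision. A gene with several probes is given by its brightest tested probe. Genes were named through RefSeq accessions (5578 probes). All members and the 5 most alike genes per member were named by rule, and every list gene was counted. The plan was to name at most 8 genes per list, those with the smallest unadjusted limma p. The list genes named here did not all follow it. SSTR3 and GNAI3 were named at an unadjusted limma p of 0.978 and 0.853, while genes with a smaller p were left out. The design called the pathway lists 2 where there are 3, and all 3 were used. The members and lists were chosen with earlier results of these data known. The values of 1 list gene are not reported here. The fit was tested on simulated data.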

Additional observations from a re-analysis of the deposited data

Results flagged for a closer look

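Dixon's ratio was taken for 15 sets of 4 values, the ratios and both groups' levels of the 5 members, and 1 set held a value far from the other 3, where chance gives about 1 in 20. It was the level of GHSR in pregnant gilts, with a ratio of 0.893: the pregnant gilt of array 4 stood at 6.83 against 6.51 to 6.55 in the other 3. The cyclic gilt of the same array was also the highest of its group, at 6.71, although not well above background.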

How the results depend on the processing

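With the dyes as labelled SSTR5 kept its sign in all 15 alternatives, but not all of them could have changed it. The changed filters, kept outlier flags, dim area, dye term and separate-channel fit could not move its ratio of 1.23. The processed signals and the value table hold the same ratios, at 1.30. Reading pregnant RNA as Cy3 on every array, where state and dye cannot be told apart, gave -0.26 for SSTR5 and -0.042 for GHSR. The adjusted p of SSTR5 passed in the separate-channel fit (ratio 1.23, adjusted p = 0.0267 in limma) and without the array of replicate 1 (1.00, adjusted p = 0.0211). In limma it was 0.853 without replicate 2 and 0.588 without replicate 4. GH1 changed sign with processed signals (0.0073), the value table (0.0073) and median centring (0.21), and leaving out 1 array gave -0.37 to 0.36. GHRHR changed sign with median centring (0.052), and leaving out 1 array gave -0.21 to 0.051. GHSR changed sign with processed signals (-0.028) and the value table (-0.028). Leaving out 1 array gave 1.00 to 1.47 for SSTR5. The cause of these changes was not tested. Limma called 0 probes, with 3904 at an unadjusted p under 0.05. It called 1 without background correction, 2 without a dye effect, 1046 in the separate-channel fit, and 0 to 3381 on leaving out 1 array: 3381 without replicate 1, 4 without replicate 3 and 0 otherwise. Median centring moved the median of all probes from 0.01 to 0.08 and, of the probes under that p, those higher in pregnant gilts from 57.8% to 82.2%. Each member has 1 probe, so no other probe choice could be made. GHSR and SSTR2 are limited by signals near background. Each ratio pairs the 2 gilts of an array, so the tests on ratios are paired by array. No other pairing could be made, because the labels number arrays, not gilts.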
